A study of Mus musculus with 4 samples.

Results

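The effect of a pool of plant microRNAs on the liver of mice fed a normal diet was examined by comparing 1 liver sample from treated mice with 1 from untreated mice, which are 2 of the 4 liver samples of the study. The study asked whether microRNAs of Moringa oleifera seeds (the mol-miR pool), given by gavage, change hepatic genes of adipogenesis and lipid metabolism in mice on a normal diet (ND) or a high fat diet (HFD). The animals were 12 male C57BL/6J mice, 2 months old at the start, with 3 mice in each group, and the mol-miR pool was given every 2 days over 5 weeks. Fat made up 10% of the kcal of the ND and 60% of those of the HFD, protein 20% of both, and carbohydrate 70% and 20%. What the untreated mice received by gavage is not stated. Samples are named here by the column labels of the Ct table, in which LFD stands for ND without the mol-miR pool and LFDPool for ND with it, and HFD and HFDPool stand for the high fat diet without and with it. The diet labels may be exchanged between the tables of the study. The study reports Lpl, Ppara, Lep, Vdr and Agt, among other genes, as higher in HFD than in ND livers. In the Ct table, Lpl (22.3 in LFD, 25.0 in HFD) and Ppara (23.4 and 25.2) had a later Ct, meaning less template, in HFD. Agt went the other way (23.5 and 23.3). Which labels are right was not tested, and the diet names used below follow the column labels. The sources used here do not say whether each liver sample holds RNA of 1 mouse or of pooled mice.

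Transcripts were measured by quantitative PCR on plates with the primers of 1 gene per well (a PCR array). The readout, the threshold cycle or Ct, is the number of cycles needed for the fluorescence to reach a fixed level, so that a lower Ct means more template and a difference of 1 cycle is taken as a doubling. Each gene was measured in 1 well per sample, so that no difference between LFD and LFDPool has a biological error, and no test was made. All 84 array genes had a Ct in both samples. The Ct of each gene was set against the mean Ct of 5 reference genes (Actb, Gapdh, Gusb, Hprt and Hsp90ab1), and the difference between the samples is given as a log2 fold change of LFDPool over LFD, in which positive values mean a higher level with the mol-miR pool. A gene is called upregulated where its fold change exceeded 1.5 and downregulated where it was under 0.5. The sole measure of technical error came from the repeated control wells of the plates (positive PCR controls of both samples and reverse transcription controls of LFDPool), whose SD was 0.433 cycles (4 degrees of freedom), which is 0.61 on the log2 scale for a difference of 2 wells, or 1.53-fold. The limit of 1.5-fold (0.58 on the log2 scale) lies inside that spread. The spread is 1 SD of a difference and leaves out the error of the reference genes. A change larger than it can therefore still be technical error.

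The array covers the differentiation of fat cells and the handling of lipid, programmes that share many regulators with the liver. In adipocytes, C/EBP proteins and PPARγ (Pparg) act in sequence to switch on the genes of the mature fat cell, while Wnt signalling and the preadipocyte factor Dlk1 hold the precursor undifferentiated. In hepatocytes, the liver X receptor (Nr1h3) and SREBP-1 (Srebf1) drive fatty acid synthesis, PPARα (Ppara) drives fatty acid oxidation, and PGC-1α (Ppargc1a) and FOXO1 (Foxo1) drive gluconeogenesis in fasting. MicroRNAs are short RNAs that pair with messenger RNAs and lower their translation or stability. Whether plant microRNAs taken up from food do so in animals is debated.

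The genomic DNA control (MGDC), a well that amplifies an untranscribed stretch of mouse DNA and so reports DNA carried over into the cDNA, divided the array. Its Ct was 26.8 in LFD and 28.8 in LFDPool, 2.05 cycles later in LFDPool, against 34.7 in HFD and 33.4 in HFDPool. Genes with a Ct 3 or more cycles earlier than this well in both LFD and LFDPool were separated from the others. There were 21 such genes, with a Ct of 19.7 to 23.8 in LFD and 20.0 to 25.2 in LFDPool, and 63 others, with a Ct of 23.8 to 29.4 in LFD and 22.5 to 29.6 in LFDPool. Of the 63, 8 were 3 or more cycles ahead in LFDPool alone and 55 in neither sample. Within 2 cycles of the DNA control lay 55 of the 84 genes in LFD and 46 in LFDPool. Closest to the limit on the inner side in LFD were Ppargc1a (3.02 cycles ahead), Lmna (3.04) and Cdkn1b (3.13), and on the outer side Hes1 (2.97), Ccnd1 (2.96) and Klf4 (2.83). The array genes were on average later in LFDPool, with a median Ct of 25.4 in LFD and 26.9 in LFDPool, and 80 of the 84 genes had a later Ct there.

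**Figure D1:**
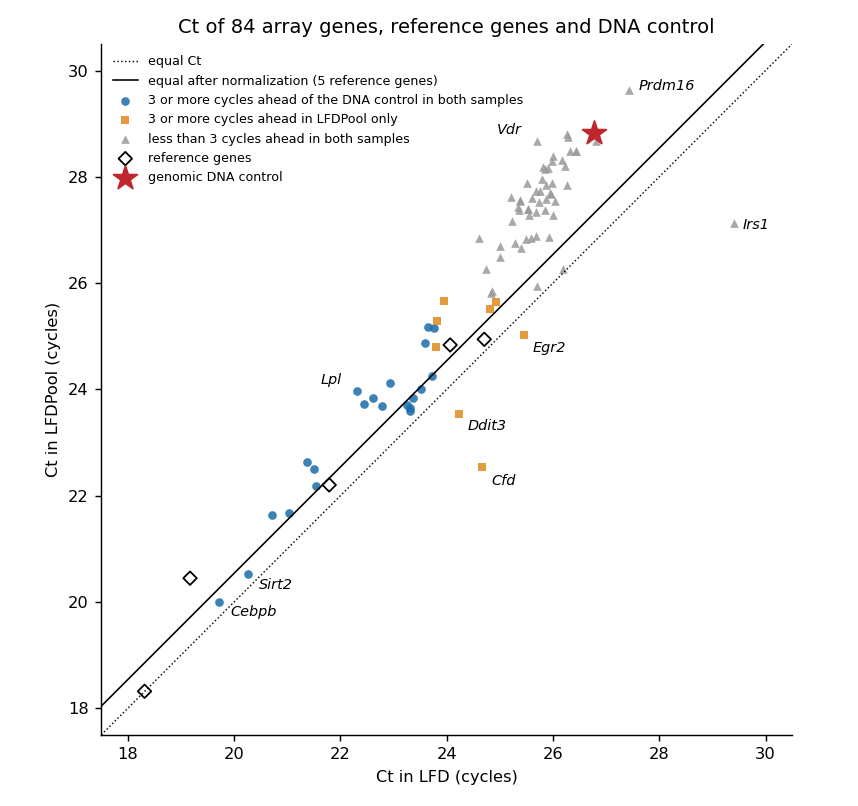
Ct in LFD (x axis, cycles) against Ct in LFDPool (y axis, cycles), 1 well per gene and sample, for the 84 array genes, the 5 reference genes (diamonds) and the genomic DNA control (star, 26.8 and 28.8). The dotted line marks equal Ct and the solid line equality after normalization (0.54 cycles later in LFDPool); most of the 55 genes less than 3 cycles ahead of the control in both samples (triangles) lie above the solid line in a cloud close to the control, whereas the 21 genes ahead of it (circles) lie within 1.12 cycles of that line.

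Set against the mean of the 5 reference genes, the genes ahead of the DNA control differed little between LFD and LFDPool. Of these 21 genes, 0 were upregulated and 1 was downregulated, where 4.76% of all 84 genes were upregulated (4 genes) and 48.8% were downregulated (41 genes). Their median log2 fold change was -0.38 and ran from -1.12 for Lpl to 0.28 for Sirt2, beside a median of -0.99 over all 84 genes. By sign alone, 8 of the 21 were higher and 13 lower in LFDPool. The change was smaller than the spread between control wells for 13 of them, and for the other 8 it was a lower level in LFDPool. In bulk liver RNA, fewer cells of a type and less RNA per cell cannot be told apart.

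Of the C/EBP genes and the PPARs, 4 were in this class. Cebpb, a C/EBP protein of early adipocyte differentiation and of the hepatic acute phase response, had the earliest Ct of the class, 19.7 in LFD and 20.0 in LFDPool, and a log2 fold change of 0.26. Cebpa, a C/EBP protein that maintains hepatocyte gene expression, had a Ct of 23.3 and 23.7 (log2 fold change 0.09). Pparg, the master regulator of the fat cell, had a Ct of 23.3 and 23.6 (0.25). Ppara, the receptor that governs fatty acid oxidation, had a Ct of 23.4 and 23.8 (0.06). The Ct of each of these genes was thus later by less than the 0.54 cycles by which the mean of the reference genes was later.

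Among the sirtuins, which are NAD-dependent deacylases, the cytoplasmic Sirt2 had a Ct of 20.3 and 20.5 (0.28) and the mitochondrial Sirt3 23.3 and 23.6 (0.21). Agt, which encodes angiotensinogen and is made chiefly by hepatocytes, had a Ct of 23.5 and 24.0 (0.05). Lmna, which encodes the nuclear lamins A and C, had 23.7 and 24.2 (0.02), and the growth factor gene Fgf1 had 21.5 and 22.2 (-0.10). None of these 9 genes changed by more than the spread between control wells.

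Of the 7 array genes of lipid synthesis, uptake and breakdown, 5 were ahead of the DNA control, and all 5 were lower in LFDPool, as were 13 of the 21 genes of the class. All 5 were also lower with Gusb, Hprt, Hsp90ab1 or Actb alone as the reference, but 3 of them were higher with Gapdh alone and 4 with the median Ct of the array. Lpl, the lipoprotein lipase that releases fatty acids from circulating triglyceride, had a Ct of 22.3 in LFD and 24.0 in LFDPool, a log2 fold change of -1.12 (0.460-fold), and was the sole downregulated gene of the class. Srebf1 had a Ct of 22.4 and 23.7 (-0.75), and its target Fasn, the fatty acid synthase, had 22.6 and 23.8 (-0.69). Fabp4, a fatty acid binding protein of adipocytes and macrophages, had 22.9 and 24.1 (-0.65). Nr1h3, which activates Srebf1, had 20.7 and 21.6 (-0.38), a change within the spread between control wells. The other pair of the list was close to the DNA control. Acacb, the acetyl-CoA carboxylase that restrains mitochondrial fatty acid oxidation, had a Ct of 25.9 in LFD and 26.9 in LFDPool (-0.40), and Lipe, the hormone-sensitive lipase, had 25.5 and 27.4 (-1.32).

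Of the remaining genes of the class, Ppargc1a had a Ct of 23.8 in LFD and 25.2 in LFDPool (log2 fold change -0.85). Foxo1 had 23.6 and 24.9 (-0.73), and Klf15, a Krüppel-like factor of amino acid and glucose metabolism in fasting, had 21.4 and 22.6 (-0.72). Cdkn1b, which encodes the cell cycle inhibitor p27, had 23.6 and 25.2 (-0.99, 0.505-fold), just inside the limit of 0.5. Tsc22d3 (GILZ), which glucocorticoids induce, had 21.5 and 22.5 (-0.47), and Tcf7l2, the transcription factor at the end of the Wnt pathway, had 22.8 and 23.7 (-0.38). The last 2 changes were smaller than the 0.61 of a difference of 2 control wells, and the others were larger.

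**Figure D2:**
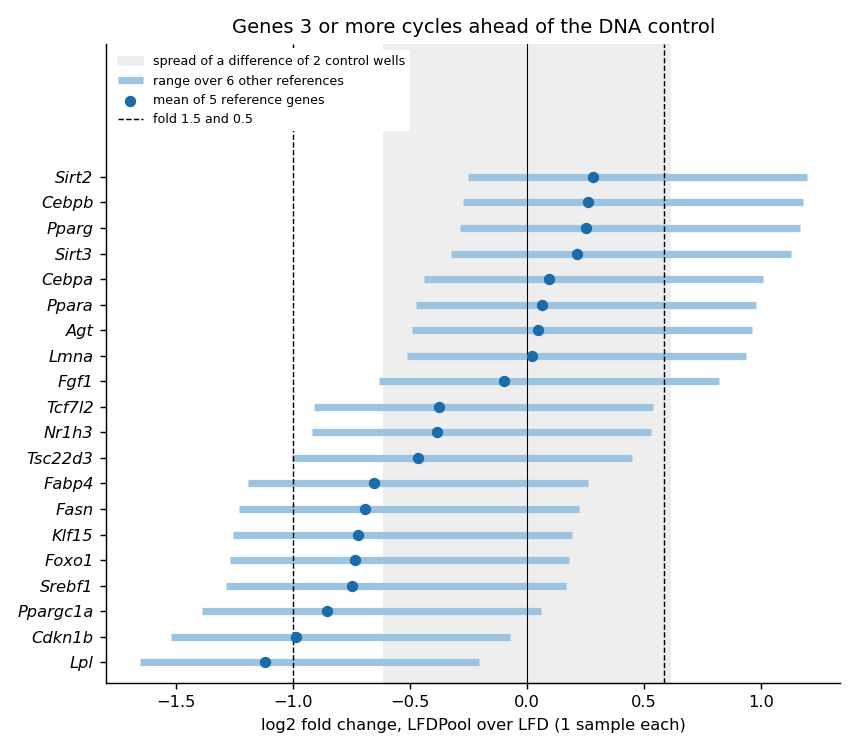
Log2 fold change of LFDPool over LFD (x axis) for 20 of the 21 genes 3 or more cycles ahead of the genomic DNA control, 1 sample each. Points use the mean of 5 reference genes, bars give the range over 6 other references, the grey band is the spread of a difference of 2 control wells (0.61 on either side of 0) and dashed lines are fold changes of 1.5 and 0.5; the bars of Cdkn1b and Lpl alone do not cross 0.

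The position of 0 depended on the reference. From LFD to LFDPool the Ct of Hsp90ab1 was later by 0.005 cycles, that of Actb by 0.235, Hprt by 0.413, Gusb by 0.771 and Gapdh by 1.28, and Actb and Gusb were themselves 2.07 and 2.71 cycles ahead of the DNA control in LFD. With Hsp90ab1 alone all 21 genes were lower in LFDPool and 9 of them were downregulated, whereas with Gapdh alone 17 were higher and 10 were upregulated. Cdkn1b and Lpl were lower with each of the 6 other references (the 5 genes one at a time and the median Ct of the array), Lpl between -1.66 and -0.21 and Cdkn1b between -1.52 and -0.07. The positive PCR control, an artificial template in wells of its own, was also later in LFDPool. Its mean Ct was 17.4 in LFD (2 of 3 wells gave a value) and 18.4 in LFDPool (3 of 3). The part of this shift in the later Ct values was not tested. Differences between genes of the same plate do not depend on the reference. On this measure Sirt2 and Lpl, the 2 ends of the class, moved apart by 1.40 on the log2 scale, or 2.64-fold. They were picked as the highest and lowest of the 21 genes, so a gap between them was fixed in advance.

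Most of the genes that passed the lower limit were close to the DNA control. Of the 41 downregulated genes, 40 (97.6%) belonged to the 63 genes not ahead of it in both samples, whose median log2 fold change was -1.24. The median of the 21 genes ahead of the control was higher by 0.87 on the log2 scale with any reference. The same Ct values placed the genes in the classes and gave the change, so this difference is a description. The DNA control well itself, treated as if it were a gene, had a log2 fold change of -1.50 (0.352-fold). The change of 45 of the 63 genes lay within the spread between control wells of that value, and 2 of the 21 genes did so. Of the remaining 18, 17 were higher than the control well by more than that spread and 1, Vdr, was lower. Grouped by their distance from the DNA control in LFD, the median log2 fold change was -1.48 for the 24 genes up to 1 cycle ahead, -1.20 for 29 genes 1 to 2 cycles ahead and -0.94 for 7 genes 2 to 3 cycles ahead. It was 0.02 for 11 genes 3 to 4 cycles ahead and -0.43 for 10 genes more than 4 cycles ahead, and the remaining 3 genes were later than the control. The part of genomic DNA in these changes was not tested beyond 1 calculation, in which the signal of the DNA control well was subtracted from every gene. The calculation assumes that genomic DNA amplifies in every well as in the control well, which was not tested. Under that assumption no gene would be later than the control beyond well error, and Irs1 was 2.63 cycles later in LFD. The subtraction moved the genes ahead of the control by at most 0.09 on the log2 scale. It moved 8 of the other genes by more than the spread between control wells and left nothing to measure for 3.

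**Figure D3:**
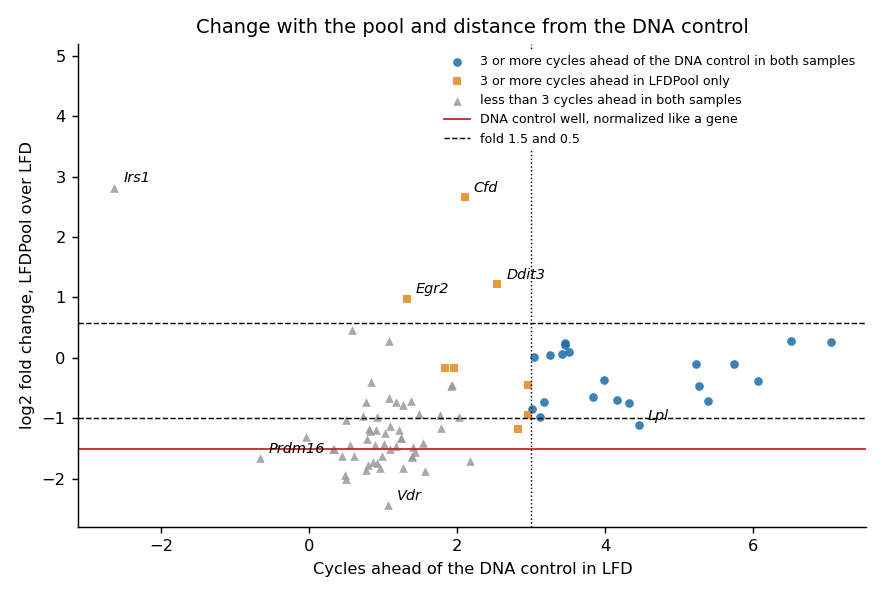
Log2 fold change of LFDPool over LFD (y axis) against the number of cycles by which each of the 84 genes was ahead of the genomic DNA control in LFD (x axis, cycles), 1 sample each. The red line is the DNA control well treated as a gene (-1.50), dashed lines are fold changes of 1.5 and 0.5 and the dotted line is the limit of 3 cycles; the triangles crowd around the red line, and the genes to the right of the limit lie between -1.12 and 0.28.

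The 4 upregulated genes were Irs1, Cfd, Ddit3 and Egr2, and they were also the 4 genes with an earlier Ct in LFDPool and the 4 that were higher with each of the 6 other references, under which 48 genes were lower each time. Cfd encodes adipsin (complement factor D), a protease that adipocytes secrete. Its Ct was 24.7 in LFD, 2.11 cycles ahead of the DNA control, and 22.5 in LFDPool, 6.28 cycles ahead, a log2 fold change of 2.66 (6.34-fold, from 2.13 to 3.58 over the other references). Ddit3, which encodes CHOP, the C/EBP protein induced by stress of the endoplasmic reticulum, had a Ct of 24.2 and 23.5 (1.22, from 0.68 to 2.13). Egr2 (Krox20), an early activator of adipocyte differentiation, had 25.5 and 25.0 (0.98, from 0.44 to 1.89). These 3 genes were 3 or more cycles ahead of the DNA control in LFDPool but not in LFD. Subtracting the signal of the DNA control well, with its assumption of equal amplification, gave larger values, 2.93 for Cfd, 1.36 for Ddit3 and 1.51 for Egr2. Irs1, the insulin receptor substrate, had the largest fold change, 2.82 (7.06-fold). Its Ct was 29.4 in LFD, 2.63 cycles later than the DNA control, and 27.1 in LFDPool, 1.69 cycles ahead. Its LFD signal was thus weaker than that of the DNA control well, and the subtraction gave no value for its change.

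Another 5 genes were 3 or more cycles ahead of the DNA control in LFDPool alone. Klf4 had a Ct of 23.9 in LFD and 25.7 in LFDPool (-1.18), and Ccnd1, which encodes cyclin D1, had 23.8 and 25.3 (-0.94). Hes1, a target of Notch signalling, had 23.8 and 24.8 (-0.45). Wnt5b had 24.9 and 25.6 (-0.16), and Taz had 24.8 and 25.5 (-0.16).

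The other highest values among the 55 genes near the DNA control in both samples, after Irs1, were those of Jun (log2 fold change 0.46), Klf3 (0.28), Acacb (-0.40), Ppargc1b (-0.44) and Bmp4 (-0.46), and none of these passed a limit. The lowest were Vdr, the vitamin D receptor (-2.44), Retn, the adipokine resistin (-2.01), the Wnt coreceptor Lrp5 (-1.94), the p38 kinase Mapk14 (-1.87), Gata3, which holds preadipocytes undifferentiated (-1.86), and Ucp1, the uncoupling protein of brown fat (-1.83). In LFDPool, Retn was 0.002 cycles ahead of the DNA control, Lrp5 0.059 and Vdr 0.138.

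The functional lists differed in how many members stood clear of the DNA control and in how many were downregulated. Of 10 genes of thermogenesis and mitochondrial biogenesis, 8 were downregulated and 1 (Ppargc1a) was ahead of the control. Of 11 Wnt pathway genes, 8 were downregulated and 1 (Tcf7l2) was ahead, and of 8 growth factors and morphogens 5 were downregulated and 1 (Fgf1) was ahead. In contrast, 2 of the 7 genes of lipid synthesis, uptake and breakdown were downregulated, 3 of the 8 nuclear receptors and coregulators, 1 of the 3 sirtuins (Sirt1, Ct 25.4 and 27.6, -1.65) and 1 of the 4 C/EBP genes (Cebpd, Ct 25.3 and 27.4, -1.55). Of the 5 genes of insulin signalling and glucose uptake, Irs1 was upregulated and Slc2a4, the insulin-responsive glucose transporter, was downregulated (Ct 24.6 and 26.9, -1.71), with Insr (-0.99), Irs2 (-0.78) and Foxo1 (-0.73) between the limits. Of 8 preadipocyte regulators, 3 were downregulated and Egr2 was upregulated. Downregulated members numbered 4 of 6 among the adipokines, 2 of 6 among cell cycle genes, 2 of 5 among the Krüppel-like factors with Tsc22d3, and 1 of 3 among the rest. None of these shares was tested against the 48.8% of all genes, or the 63.5% of the 63 genes not ahead of the control in both samples. All members but 1 of each of the first 3 lists lay among those 63 genes.

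The study predicted by sequence that 41 of the array genes are murine targets of the mol-miR pool. Of these, 22 (53.7%) were downregulated and 3 (7.32%) upregulated, with a median log2 fold change of -1.13, beside 48.8%, 4.76% and -0.99 over all 84 genes. Ahead of the DNA control were 9 of them, Agt, Fabp4, Fasn, Klf15, Lpl, Nr1h3, Ppara, Sirt2 and Srebf1, with 1 downregulated (Lpl) and a median of -0.65. The set holds both ends of the class, Sirt2 at 0.28 and Lpl at -1.12.

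The markers of cell types on the array were read in the same way. Of 8 genes typical of hepatocytes, 4 (Agt, Cebpa, Nr1h3 and Ppara) were ahead of the DNA control and between -0.38 and 0.09 on the log2 scale. The other 4 were near it, among them Nr0b2, which encodes the bile acid induced repressor SHP (Ct 25.0 and 26.7, -1.16), and Rxra (24.7 and 26.3, -0.99). Of 9 adipocyte markers, Fabp4 and Pparg were ahead of the control in both samples and Cfd in LFDPool alone. Adipoq, the adiponectin gene, was 0.914 cycles ahead in LFD and 0.670 in LFDPool, and Lep 1.22 and 1.53. Of these 9, 1 was upregulated (Cfd) and 6 were downregulated, beside 4.76% and 48.8% of all 84 genes, and the part of adipose tissue in the level of Cfd was not tested. Of the 3 brown adipocyte markers Ucp1, Dio2 and Prdm16, 0 were ahead of the control in both samples and all 3 were downregulated, as were 70.9% of the 55 genes near the control in both, Prdm16 with a Ct later than the control in both.

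The 21 genes were also ahead of the DNA control in HFD and HFDPool, which allows the mol-miR pool to be compared on the other diet, in samples that share none with LFD and LFDPool. Diets are named by column label, and the labels may be exchanged, so no direction is tied here to a diet. The positive PCR control gave a Ct in 1 of 3 wells in HFD (21.2) and in HFDPool (22.0). Its mean Ct was 17.4 in LFD and 18.4 in LFDPool. In HFDPool over HFD, 16 of the 21 were upregulated and 0 downregulated, where 84.5% of all 84 genes were upregulated and 1.19% downregulated. The study reports the other direction for this comparison at the same fold limits, with more array genes downregulated than upregulated by the mol-miR pool. The part of exchanged labels in this difference from the study was not tested. For the 21 genes the median log2 fold change of HFDPool over HFD was 0.98, against -0.38 on the normal diet. The sign was opposite for 13 genes. Of these, 12 were lower in LFDPool than in LFD and higher in HFDPool than in HFD, and 1, Agt, was the reverse (0.05 and -0.32). These counts held for the mean of the 5 reference genes. With a single reference gene the sign was opposite for between 4 (Gapdh) and 21 genes (Actb). With the median Ct of the array as the reference it was opposite for 12 genes, 11 of them higher on the normal diet and lower on the high fat diet, and the medians were 0.54 and -0.28. The number upregulated on the high fat diet ran from 4 (median Ct) to 21 (Gapdh or Actb). The largest gap was that of Lpl, whose Ct was 22.3 in LFD, 24.0 in LFDPool, 25.0 in HFD and 23.8 in HFDPool, giving -1.12 on the normal diet and 1.46 on the high fat diet. Its Ct was thus earliest in LFD and latest in HFD. Ppargc1a had -0.85 and 1.09.

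With the mean of the 5 reference genes, 7 genes were above 0 on both diets, Sirt2, Cebpb, Pparg, Sirt3, Cebpa, Ppara and Lmna. None of the 7 exceeded 0.61 on the normal diet, and all 7 were below 0 with Hsp90ab1 or Actb alone. Pparg had the highest value on the high fat diet (2.49), followed by Sirt2 (2.08), which was the highest on the normal diet. Fasn was the 1 gene lower on both (-0.69 and -0.23). Across the 21 genes the changes on the 2 diets had a Spearman rho of 0.52 and a Pearson r of 0.46, which describes genes that share a plate and a reference and are not independent replicates. Of the 4 upregulated genes, Cfd had a Ct of 29.0 in HFD and 21.8 in HFDPool (log2 fold change 7.45), Egr2 2.77 and Ddit3 1.29, whereas Irs1, with a Ct of 28.7 and 28.5, had 0.53 and passed no limit.

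**Figure D4:**
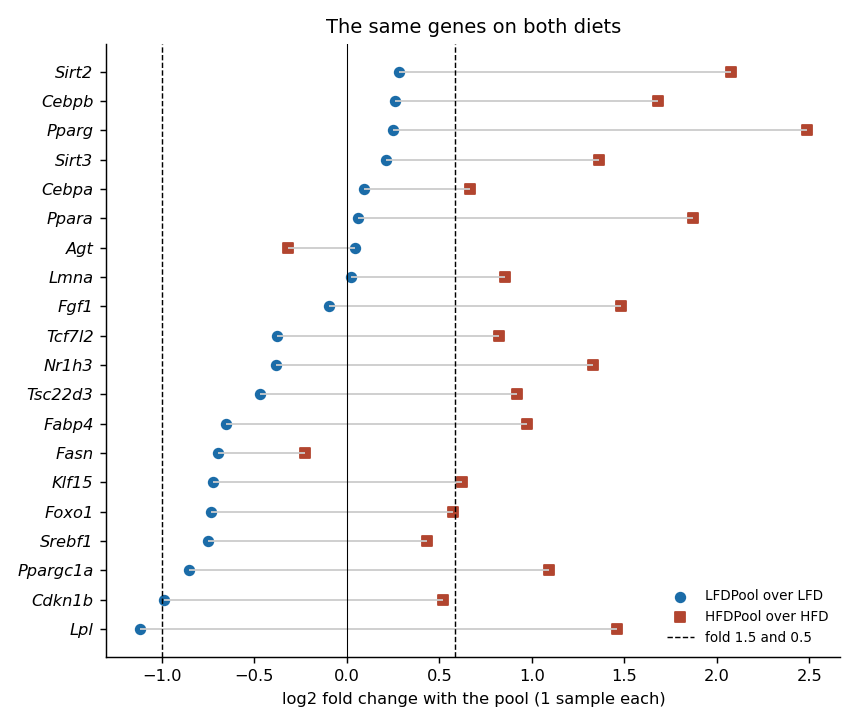
Log2 fold change with the mol-miR pool (x axis, 1 sample each) for 20 of the 21 genes 3 or more cycles ahead of the genomic DNA control in all 4 samples, on the diets of the column labels, normal (circles, LFDPool over LFD) and high fat (squares, HFDPool over HFD). Dashed lines are fold changes of 1.5 and 0.5; the circles run from -1.12 to 0.28 and the squares from -0.32 to 2.49, with Agt the sole gene whose square lies left of its circle.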

How the data were processed

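Hepatic RNA was extracted with TRIzol and measured with the Mouse Adipogenesis RT2 Profiler PCR Array and SYBR Green. A DNase step is not given in the sources used here. The authors deposited a score per well, the Ct as exported, without normalization, for 96 wells and 4 samples. Their second table holds their own fold changes for 4 comparisons and was not used. Columns were assigned to groups by name, and all 84 gene symbols matched RefSeq.

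Ct values above 35 were set to 35 (none in LFD or LFDPool), the mean Ct of the 5 reference genes was subtracted, and the negative difference was taken as the log2 fold change. The genes and lists were chosen with earlier results of these data known. Named were all genes ahead of the DNA control in either sample, the 6 highest and the 6 lowest of the rest, list examples, reference genes, controls and genes with 1 direction under every reference, the last as counts where many. The values of 1 of the 21 genes are not reported here, though it enters the counts and medians. Alternatives were other references, Ct limits, margins and fold limits, subtraction of the DNA signal and, added after the data were seen, 2 further references and the diet comparison under each reference. The arithmetic was checked on known fold changes put into the measured Ct values without noise. Their return was fixed in advance, so the check does not bear on technical error, the choice of reference or carried-over DNA. Python 3.11.15, numpy 2.4.6, pandas 2.3.3 and matplotlib 3.10.9 were used.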

Additional observations from a re-analysis of the deposited data

Results flagged for a closer look

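With the mean of the 5 reference genes, the direction of the change with the mol-miR pool was opposite on the 2 diets for 13 of the 21 genes ahead of the genomic DNA control, and with 1 sample per group the difference was not tested. The diets are those of the column labels, which may be exchanged. The count ran from 4 with Gapdh alone to 21 with Actb alone, and with the median Ct of the array 11 of 12 such genes differed the other way. Given for 12 of them as the log2 fold change on the high fat diet minus that on the normal diet, it was 2.58 for Lpl, 1.95 for Ppargc1a, 1.71 for Nr1h3, 1.63 for Fabp4, 1.58 for Fgf1 and 1.51 for Cdkn1b. It was 1.39 for Tsc22d3, 1.34 for Klf15, 1.30 for Foxo1, 1.20 for Tcf7l2, 1.18 for Srebf1 and -0.37 for Agt. On the same well SD the spread of such a difference of 4 wells is 0.87, and that of Agt was within it. This spread leaves out the error of the reference genes, which moves all 12 values together. A larger difference can therefore still be technical error.

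Control wells differed between the samples. The reverse transcription control gave a Ct in 0 of 3 wells in each of LFD, HFD and HFDPool, and in 2 of 3 in LFDPool (28.6 and 29.4). The genomic DNA control had a Ct of 26.772 in LFD and 28.817 in LFDPool.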

How the results depend on the processing

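With the mean of 5 reference genes, 0 of the 21 genes ahead of the DNA control were upregulated and 1 was downregulated (median -0.38), against 4 and 40 of the 63 others (median -1.24). These counts and medians kept within 1.5 times or the well spread with no Ct limit, a Ct limit of 32, an upper fold limit of 2, a margin of 4 cycles (10 genes ahead), a margin set in LFD alone, and the mean of Hprt, Hsp90ab1 and Gapdh as the reference, added after the data were seen. Downregulated genes among those ahead numbered 0 with Gusb, 2 with Hprt, 9 with Hsp90ab1 and 6 with Actb. With Gapdh the medians were 0.36 and -0.51, 10 genes ahead were upregulated and 0 downregulated, and 9 others were downregulated. With the median Ct they were 0.54 and -0.33, with 10 and 0 among the genes ahead and 8 and 3 among the others. With the positive PCR control, added after the data were seen, 4 genes ahead were upregulated and 0 downregulated, and 24 others were downregulated. A margin of 2 cycles put 27 genes ahead, 2 upregulated and 2 downregulated, with 2 others upregulated. Subtracting the DNA signal gave 2 downregulated genes ahead. The median of the genes ahead thus turned from below 0 to above 0 with Gapdh, the median Ct or the positive PCR control (0.07). None of the named genes past a limit changed sign. Genes of opposite sign on the 2 diets, 13 with the 5 reference genes, numbered 4 with Gapdh and 21 with Actb, in a comparison added after the data were seen. Over all 84 genes, the 4 upregulated and 41 downregulated became 5 and 32 with Gusb, 4 and 48 with Hprt, 3 and 60 with Hsp90ab1, 16 and 9 with Gapdh, 4 and 56 with Actb, 18 and 3 with the median Ct and 10 and 24 with the positive PCR control, and the median of all genes moved from -0.99 to between -1.52 (Hsp90ab1) and -0.07 (median Ct). With 1 sample per group, no paired analysis was possible because the groups hold 1 sample each, and no replicate could be left out.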
